A study of Mus musculus with 9 samples.

Results

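Matrix metalloproteases (Mmp genes), ADAM and ADAMTS proteases and their tissue inhibitors (Timp genes) were described across 9 RNA-seq libraries of mouse uterine luminal epithelium, the cell layer that lines the uterine lumen. The family was taken as every gene symbol of the deposited table that begins with Mmp and a digit, Adam and a digit, Adamts, or Timp and a digit. This rule found 52 of 15158 symbols, and it used no expression value. Epithelium was collected by laser capture on pregnancy day 4 from females housed to 8 weeks of age. The controls, Wnt7acre, carried the cre recombinase alone. The ePRAoe mice (Wnt7acre/+PgrALsL/+) and the ePRBoe mice (Wnt7acre/+PgrBLsL/+) carried the same cre with a conditional allele for isoform A or isoform B of the progesterone receptor, so that all 3 genotypes shared the cre. The names place recombination in cells that express, or descend from cells that expressed, Wnt7a. Each genotype had 3 libraries, and the bioreplicates are numbered without naming the animals. Each p-value here therefore weighs a difference against the spread among these samples, which are not known to be separate animals. The 3 comparisons asked how each receptor isoform altered the family relative to cre alone and how the isoforms differed, and they share samples and 1 estimate of the spread.

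Mmp proteins are zinc endopeptidases made as inactive precursors that cleave collagens, basement membrane and cell-surface proteins. ADAM proteases sit in the cell membrane and release the outer parts of growth factors, receptors and adhesion molecules, whereas ADAMTS proteases are secreted and cut proteoglycans and procollagens. Timp proteins bind the catalytic site and block it. In the uterus the family is known for tissue remodelling around menstruation, implantation and birth, and progesterone is a known repressor of several of its members in endometrium.

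The receptor gene checked the labels first. Pgr stood at 17.4, 3.82 and 6.62 FPKM (fragments per kilobase, a level corrected for gene length and depth) in Wnt7acre, 41.7, 49.5 and 42.8 in ePRAoe, and 38.1, 38.3 and 45.9 in ePRBoe. The values are per gene and do not tell the isoforms apart. Epcam and Cdh1, which mark epithelium, ranged from 125 to 249 and from 155 to 252 FPKM over the 9 libraries, and Foxa2, which marks glands, did not exceed 1.28 FPKM. The sum of 6 gland markers was 36.3, 45.7 and 16.2 FPKM in Wnt7acre, 3.81, 2.46 and 0.757 in ePRAoe and 51.2, 9.97 and 7.39 in ePRBoe. Among them Spink1 stood at 24.1, 41.2 and 14.8 FPKM in Wnt7acre and at 2.70, 0.180 and 0 in ePRAoe, where it fell by 3.97 (log2, limma adjusted p = 0.00580), and Prss29 reached 25.6 FPKM in ePRBoe replicate 1. The summed FPKM of 16 stromal markers was 115 to 157 in the controls, 256 to 434 with isoform A and 459 to 596 with isoform B, and the sum of 14 immune markers was 201 to 417, 134 to 174 and 409 to 484. Of the stromal markers, 10 of 16 rose in ePRAoe and 13 of 16 in ePRBoe, while 5 of 14 immune markers fell in ePRAoe and 6 of 14 rose in ePRBoe. Over all genes tested, 7.2% rose and 8.98% fell in ePRAoe, and 6.41% rose in ePRBoe. No marker of either list was at 0 in every library. Sums of 9 endothelial markers (14.4 to 22.7, 16.8 to 34.0 and 51.2 to 78.2) and of 6 smooth muscle markers (11.7 to 21.5, 16.6 to 30.2 and 38.0 to 119) were also highest in ePRBoe. Their part in the results on the family was not tested. In material captured in bulk, fewer cells of a type and less RNA per cell cannot be told apart. Wnt7acre replicate 1 stood apart from the other libraries: its 3 neutrophil markers summed to 59.8 FPKM, against 0.858 to 3.29 in the other 8. Most of this sum came from S100a8 (24.4 FPKM) and S100a9 (33.5). The third marker, Ly6g, was at 1.90 FPKM there, beside 1.98 in ePRAoe replicate 1.

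In the control epithelium Mmp7, matrilysin, was the most abundant family member and alone made up 48.6% of the family's summed mean of 512 FPKM. Adamts9, at 45.4 ± 16.7 FPKM (SD, n = 3), and Mmp14, at 35.9 ± 7.61 (SD, n = 3), followed. Timp3, at a mean of 27.7, Adam17, at 24.4, and Adam10, at 23.4 FPKM, came next, and these neighbours lay within the spread of Timp3, which ran from 8.57 to 54.2. In ePRAoe the order was Timp3, Mmp14 and Mmp2, with means of 39.3, 35.4 and 28.6 FPKM and overlapping ranges, and the family summed to 238 FPKM. In ePRBoe it was Timp3, Mmp2, Mmp14 and Mmp7, with means of 108, 47.1, 42.8 and 39.3 FPKM, and the sum was 400 FPKM. Mmp7 gave 50.9%, 81.0% and 82.4% of all Mmp FPKM in the Wnt7acre libraries, 1.60%, 1.21% and 6.06% in ePRAoe and 30.0%, 27.1% and 14.3% in ePRBoe.

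**Figure D1:**
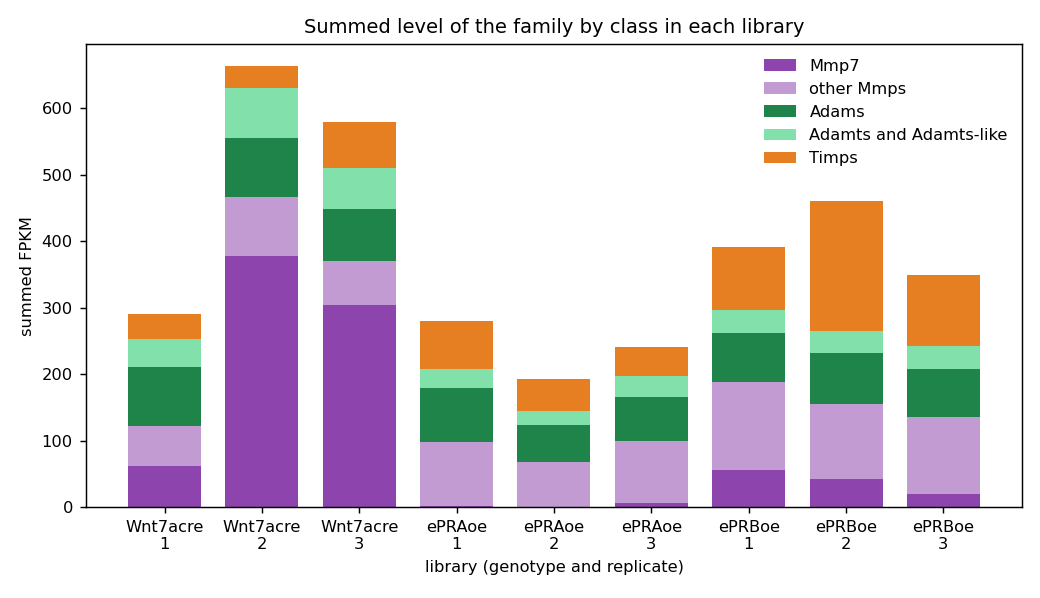
Summed FPKM of the Mmp, Adam, Adamts and Timp genes in each of the 9 libraries, as stacked bars from 0, with Mmp7 drawn apart from the other Mmp genes. Mmp7 fills most of the Mmp part in Wnt7acre replicates 2 and 3 (81.0% and 82.4%) and at most 6.06% of it in ePRAoe.

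Of the 52 members, 31 reached 1 FPKM in at least 3 libraries and were tested, and 15 of these reached 1 FPKM in all 9. The other 21 were not tested, and their highest mean was 0.683 FPKM, for Mmp16. Among the 31, 7 had no control library at 1 FPKM (Adam12, Adam19, Adamts2, Adamts4, Adamts12, Adamts15 and Mmp28) and passed through the overexpressing genotypes, so counts over the tested members are not counts over all members. The number of members at 1 FPKM or more was 20 to 23 in the Wnt7acre libraries, 23, 23 and 30 in ePRAoe and 31 to 32 in ePRBoe.

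With isoform A, the proteases Mmp7, Adamts9, Adam8, Adam28 and Adamts17 fell, and Mmp2 and Adam12 rose. Of the 31 members, 5 rose and 7 fell in ePRAoe against Wnt7acre at an adjusted p under 0.05 (limma over all 12347 genes tested, Benjamini-Hochberg). Over all genes tested 16.2% were called in this comparison, with 7.2% rising and 8.98% falling. The members' median difference was 0.07 (log2), beside -0.03 over all genes tested. In 15 members the libraries of ePRAoe and Wnt7acre did not overlap, beside 28.9% of all genes. Adamts16, Adamts2 and Adamts6 also rose, and Timp2 and Adam15 also fell. Among the 24 members with a control library at 1 FPKM, 3 rose and 7 fell. The members left out had every control under 1 FPKM, so this split leans towards falls by its selection. No split of all genes under the same selection is given here to set beside it. Adam8, among the falls, had no ePRAoe library at 1 FPKM. All 12 called members stood among the 21 members that the table lists out of alphabetical order, an order found after the values had been seen. The share of all called genes that stood out of this order is not given here to set beside it.

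Calls for Mmp7, Adamts9, Adam28, Adam8, Adamts17 and Mmp2 passed with any 1 of the 9 libraries left out. That of Adam12 was lost without ePRAoe replicate 3 (adjusted p = 0.0515). Those of Adam15 and Timp2 reached 0.171 and 0.168 without Wnt7acre replicate 3, and those of Adamts2 and Adamts6 reached 0.164 and 0.0987 without ePRAoe replicate 3. The call of Adamts16 was lost whichever library was left out, up to 0.0719 without ePRAoe replicate 2. Its difference was 0.65 without Wnt7acre replicate 1 against 1.05 with all libraries. Over all genes tested, 747 to 2719 were called with 1 library left out, beside 1998 with all libraries.

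With isoform B, Mmp2, Adam12 and Adam19 rose and Adamts9, Adam8, Adam28 and Adamts17 fell, while the difference in Mmp7 did not pass the test. Of the 31 members, 7 rose and 4 fell in ePRBoe against Wnt7acre, beside 8.89% of all genes called, 6.41% rising and 2.48% falling. The members' median difference was 0.56 (log2) and that of all genes 0.10. In 19 members the libraries of ePRBoe and Wnt7acre did not overlap, beside 39.8% of all genes. Timp1, Adamts7, Mmp19 and Adamts4 were the other members that rose. With median-of-ratios scaling, which moves the median of all genes to -0.03, 5 members rose and 4 fell, and with quantile normalization 2 rose and 4 fell. Over all genes the split was 792 rising and 306 falling as deposited. It was 618 and 477 with median-of-ratios scaling and 568 and 451 with quantile normalization. Among the 24 members with a control library at 1 FPKM, 4 rose and 4 fell, a split that leans towards falls by the same selection. Here too no split of all genes under that selection is given.

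All 3 ePRBoe libraries came from 1 of the 3 sequencing runs, together with Wnt7acre replicate 3 and ePRAoe replicate 2. Mmp2 was the sole member called in ePRBoe with any 1 library left out. Without Wnt7acre replicate 3 the other 10 calls were lost. Leaving out ePRAoe replicate 2 or ePRBoe replicate 2 lost 9, ePRBoe replicate 3 lost 8, ePRBoe replicate 1 lost 7, and Wnt7acre replicate 2 or ePRAoe replicate 3 lost 4. All 11 passed without Wnt7acre replicate 1 and without ePRAoe replicate 1. Over all genes tested the calls, 1098 with all libraries, were 232 without Wnt7acre replicate 3 and 364 without ePRAoe replicate 2. They were 389, 482 and 588 without ePRBoe replicates 2, 3 and 1. Without Wnt7acre replicate 2 or ePRAoe replicate 3 they were 981 and 971. Without Wnt7acre replicate 1 or ePRAoe replicate 1 they were 1599 and 1602.

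Between the isoforms no member was called. In ePRBoe against ePRAoe, 0 of 31 passed by limma, beside 0.324% of all genes called. An unadjusted p under 0.05 was found for 13 members and for 2310 of all 12347 genes tested. The members' median difference was 0.56 (log2), against 0.15 over all genes. Above 0 were 26 of 31 differences of members and 8155 of 12347 over all genes. In 12 members the libraries of the 2 isoforms did not overlap, beside 22.6% of all genes. The smallest adjusted p belonged to Adam15, at 0.0580 with a difference of 1.31, followed by Mmp7, at 0.0706 with 3.61. Without Wnt7acre replicate 1, or without ePRAoe replicate 1, 6 members passed, all higher in ePRBoe. Over all genes these settings gave 546 calls (421 higher in ePRBoe, 125 lower) and 544 (422 higher, 122 lower). With all libraries 40 genes were called, 39 of them higher in ePRBoe. Over both comparisons with Wnt7acre, 17 members were called at least once, 4 fell in both, 2 rose in both and 0 had opposite calls. These comparisons share the control libraries, and no like count over all genes is given here.

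**Figure D2:**
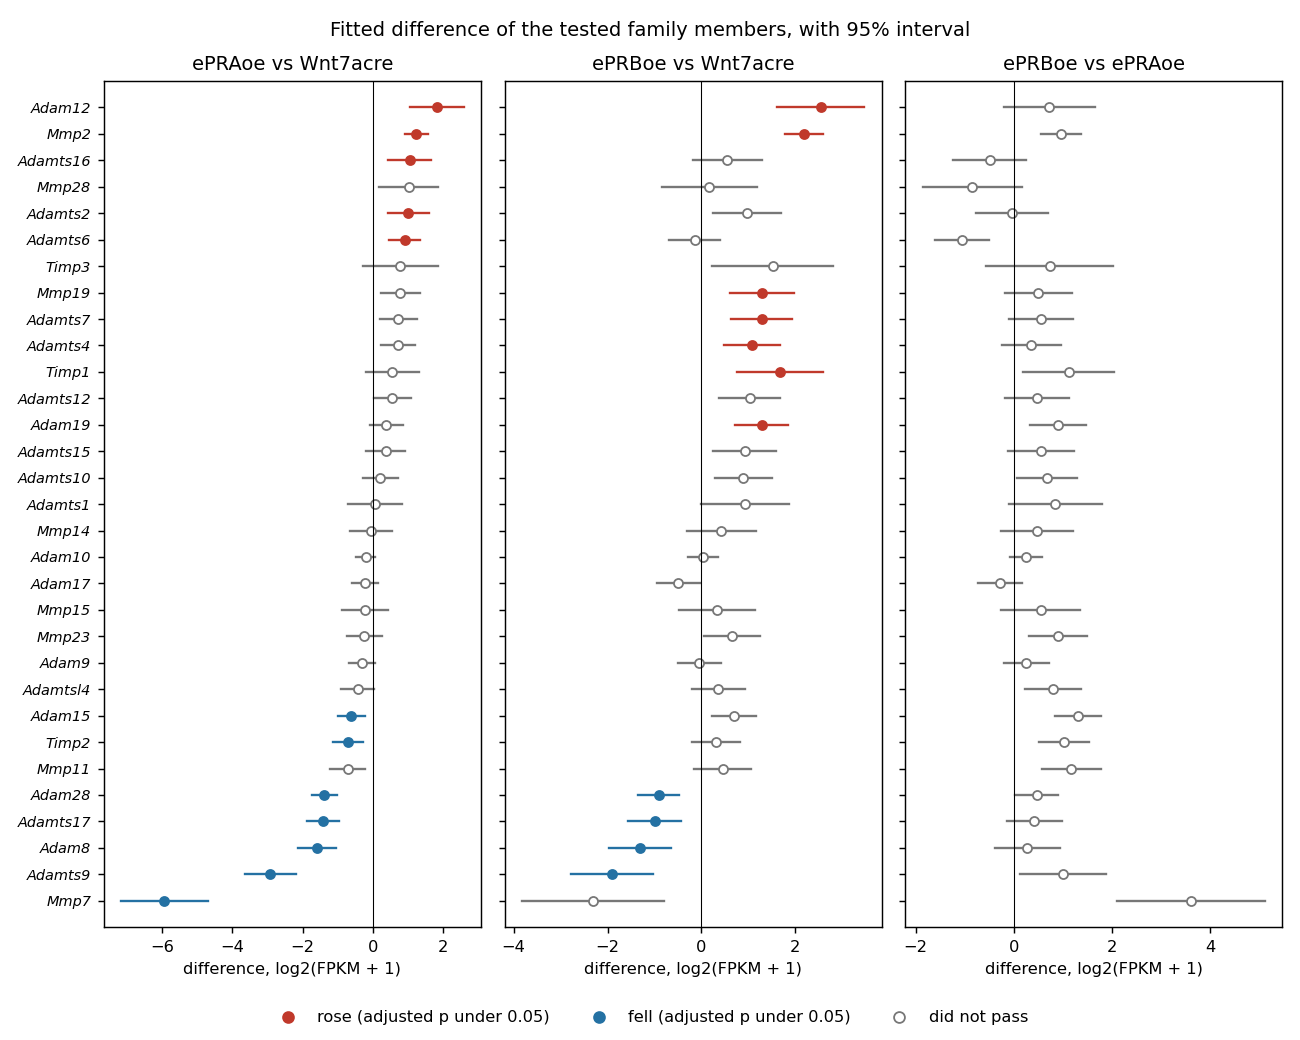
Difference in log2(FPKM + 1) with its 95% confidence interval (limma) for the 31 tested members in 3 comparisons. Filled red points rose, filled blue points fell and open grey points did not pass an adjusted p of 0.05; Mmp7 lies farthest to the left in ePRAoe against Wnt7acre, at -5.93, and no point is filled between the isoforms.

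Mmp7 encodes matrilysin, a small secreted protease of epithelia that cleaves matrix proteins and releases membrane-bound ligands. It is annotated at chr9:7692090-7699585 on the plus strand (mm10, GENCODE M21), and 11.5% of its exonic bases are shared with the antisense gene AV064505. It stood at 62.4, 378 and 305 FPKM in Wnt7acre, 1.57, 0.818 and 6.0 in ePRAoe, and 56.4, 41.9 and 19.5 in ePRBoe. The 3 genotypes did not overlap, and the lowest control, Wnt7acre replicate 1, was close to the highest ePRBoe library. The summed gland markers were lowest in ePRAoe too, and their part in the Mmp7 levels was not tested. Mmp7 fell by 5.93 (log2, SE 0.53, 95% interval -7.16 to -4.69) in ePRAoe, a 60.8-fold difference (adjusted p = 0.00171). The differences within the 3 sequencing runs were -7.39, -5.76 and -4.62. In ePRBoe the difference was -2.31 (SE 0.65, adjusted p = 0.0692) and did not pass. It was -0.85 (adjusted p = 0.599) without Wnt7acre replicate 3, -3.05 within the 1 run that holds ePRBoe, and passed without Wnt7acre replicate 1 (0.0312) or ePRAoe replicate 1 (0.0315). Mmp7 was 3.61 (SE 0.65) higher in ePRBoe than in ePRAoe, which did not pass (adjusted p = 0.0706). Without ePRAoe replicate 2 this difference was 2.14 (0.641), and without Wnt7acre replicate 1 it was 3.94 (0.0301). An exact two-sided permutation test over single libraries gave p = 0.1 for each of the 3 comparisons, the smallest that 3 against 3 allows.

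Start-site sequences are shown for Mmp7, for Adamts9 and Adam8, which fell with both isoforms, and for Adam19, the other member whose promoter holds the AP-1 letters found in Mmp7. RefSeq (GRCm38.p6) held a promoter for 30 of the 52 members, and the 250 bases before the start are shown 5′ to 3′ on the gene's strand for Mmp7 (chr9:7691840-7692089, plus), Adamts9 (chr6:92943535-92943784, minus), Adam8 (chr7:139992563-139992812, minus) and Adam19 (chr11:46055734-46055983, plus). Capitals mark matches to the AP-1 letters TGANTCA and the TATA letters TATAAA in Mmp7, to the AP-1 letters in Adam19, and to the reverse strand of the GC box GGGCGG in Adamts9 and Adam8.
Mmp7: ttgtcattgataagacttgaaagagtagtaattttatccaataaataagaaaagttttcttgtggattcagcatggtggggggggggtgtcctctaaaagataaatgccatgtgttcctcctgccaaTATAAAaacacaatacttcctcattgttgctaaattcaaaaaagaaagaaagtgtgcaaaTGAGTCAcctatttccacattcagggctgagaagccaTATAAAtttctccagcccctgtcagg
Adamts9: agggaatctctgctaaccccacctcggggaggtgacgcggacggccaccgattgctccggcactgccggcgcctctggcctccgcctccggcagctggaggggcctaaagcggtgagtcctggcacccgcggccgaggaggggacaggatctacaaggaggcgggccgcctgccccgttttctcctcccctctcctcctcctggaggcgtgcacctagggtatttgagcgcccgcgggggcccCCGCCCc
Adam8: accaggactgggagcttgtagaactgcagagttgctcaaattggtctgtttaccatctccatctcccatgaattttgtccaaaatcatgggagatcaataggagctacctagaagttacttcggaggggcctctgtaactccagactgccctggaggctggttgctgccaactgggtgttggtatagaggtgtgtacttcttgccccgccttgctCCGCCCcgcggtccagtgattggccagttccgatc
Adam19: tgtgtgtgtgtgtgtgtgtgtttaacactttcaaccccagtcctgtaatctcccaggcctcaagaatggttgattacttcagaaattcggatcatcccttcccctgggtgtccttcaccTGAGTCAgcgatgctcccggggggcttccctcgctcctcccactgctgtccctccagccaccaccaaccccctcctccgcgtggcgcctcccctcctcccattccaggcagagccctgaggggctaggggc

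In Mmp7 the AP-1 match covers bases 63 to 57 before the start and the TATA matches bases 123 to 118 and 26 to 21, in a window of 38% GC beside a median of 52.4% over all 32851 windows. The AP-1 letters occurred in 2 of 30 member promoters, Mmp7 and Adam19, or 6.67%, and in 6.75% of all windows on either strand. The Adam19 match covers bases 131 to 125. The TATA letters were in 3 of 30 (10%) against 12.4% of all windows. The Adamts9 window has 71.2% GC and its GC box lies at bases 7 to 2, and the Adam8 box lies at bases 35 to 30. The GC box was in 20 of 30 member promoters (66.7%) against 32.7% of all windows. In all these shares the member windows were those nearest the annotated gene start. All windows were taken without such a choice, so the sets are unlike. The palindromic element bound by progesterone and glucocorticoid receptors, searched with free bases allowed in each arm, was in 0 of 30 and in 0.387% of all windows, which says only that it is not in these 250 bases. The AP-1 and TATA letters do not overlap in Mmp7.

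In the accounts of single genes, differences are log2 and a bare number in parentheses after a difference or its SE is the adjusted p of limma. The gelatinases cleave basement membrane collagen and denatured collagens. Mmp2 stood at 7.99, 15.4 and 10.3 FPKM in Wnt7acre, 20.3, 21.9 and 43.4 in ePRAoe, and 51.6, 41.1 and 48.6 in ePRBoe. Every overexpressing library was above every control, and ePRAoe replicate 3 lay within the ePRBoe range. Mmp2 rose by 1.23 (log2, SE 0.14, adjusted p = 0.00297) in ePRAoe and by 2.19 (SE 0.18, adjusted p = 0.00281) in ePRBoe. The difference between the isoforms, 0.95 (SE 0.18), did not pass (adjusted p = 0.0706). Mmp2 and the stromal marker sum were both lowest in Wnt7acre and highest in ePRBoe. Within each of these genotypes the library with the highest sum was not the one with the most Mmp2. In ePRAoe, replicate 3 had both the highest sum, 434 FPKM, and the most Mmp2. The part of stromal cells in the rise of Mmp2 was not tested. Mmp9, the other gelatinase, was at 0.646 FPKM in Wnt7acre replicate 1 and at most 0.072 elsewhere, and was not tested.

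**Figure D3:**
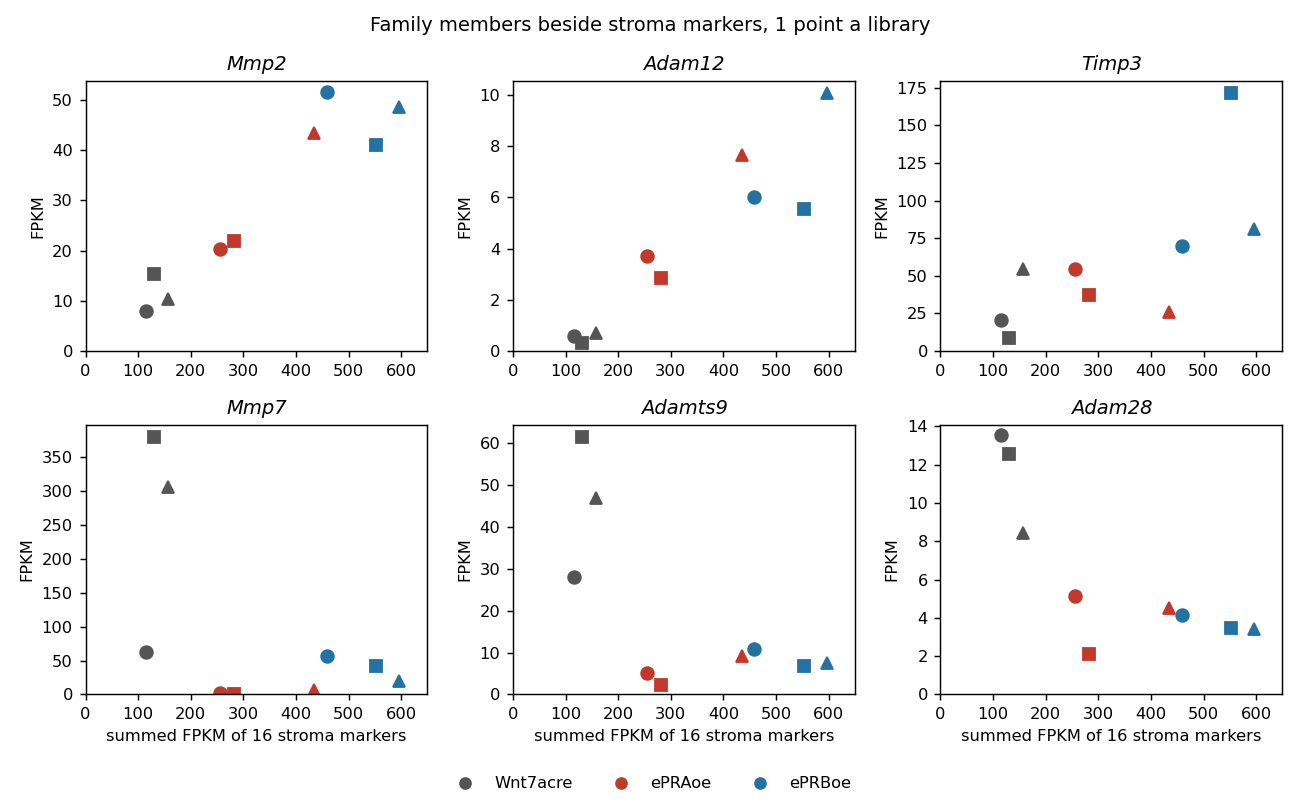
FPKM of Mmp2, Adam12, Timp3, Mmp7, Adamts9 and Adam28 in each library (linear axes; circle, square and triangle for replicates 1, 2 and 3) against the summed FPKM of 16 stromal markers, coloured by genotype. The sum runs from 115 to 157 in Wnt7acre and from 459 to 596 in ePRBoe; Mmp2 and Adam12 are lowest in the controls and Adamts9 is highest there.

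The remaining Mmp genes moved less. Mmp14, the membrane-anchored activator of pro-Mmp2, stood at 27.9, 43.0 and 37.0 FPKM in Wnt7acre, 50.5, 25.9 and 30.0 in ePRAoe and 46.9, 42.1 and 39.4 in ePRBoe, and the genotypes overlapped. Its differences were -0.06 in ePRAoe, with a 95% interval of -0.65 to 0.54, and 0.42 in ePRBoe, with -0.31 to 1.16, and neither passed. Within sequencing run 3 the ePRAoe difference was 0.84. Mmp15 and Mmp23, which are also membrane-anchored, ranged from 4.12 to 11.1 and from 5.30 to 12.9 FPKM and passed in no comparison. Mmp19, a secreted protease of basement membrane proteins, stood at 1.12, 0.374 and 0.946 FPKM in Wnt7acre, 1.74, 1.94 and 2.6 in ePRAoe and 3.12, 3.04 and 4.27 in ePRBoe. The genotypes did not overlap. Mmp19 rose by 1.29 in ePRBoe (SE 0.29, adjusted p = 0.0376) and its difference of 0.78 in ePRAoe did not pass (0.0651). It shares 22.3% of its exonic bases with Tmem198b on the other strand, which is listed at up to 3.50 FPKM. Mmp11, stromelysin 3, ranged from 3.22 to 6.88, from 2.03 to 3.26 and from 5.15 to 8.07 FPKM in Wnt7acre, ePRAoe and ePRBoe, and passed in no comparison. Mmp12, the macrophage elastase, was at 3.16 FPKM in Wnt7acre replicate 1 and at most 0.205 elsewhere, and is listed at 0 in all ePRAoe libraries. That control library is the one with the high neutrophil markers S100a8 (24.4 FPKM) and S100a9 (33.5), and what they have to do with Mmp9 and Mmp12 was not tested.

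**Figure D4:**
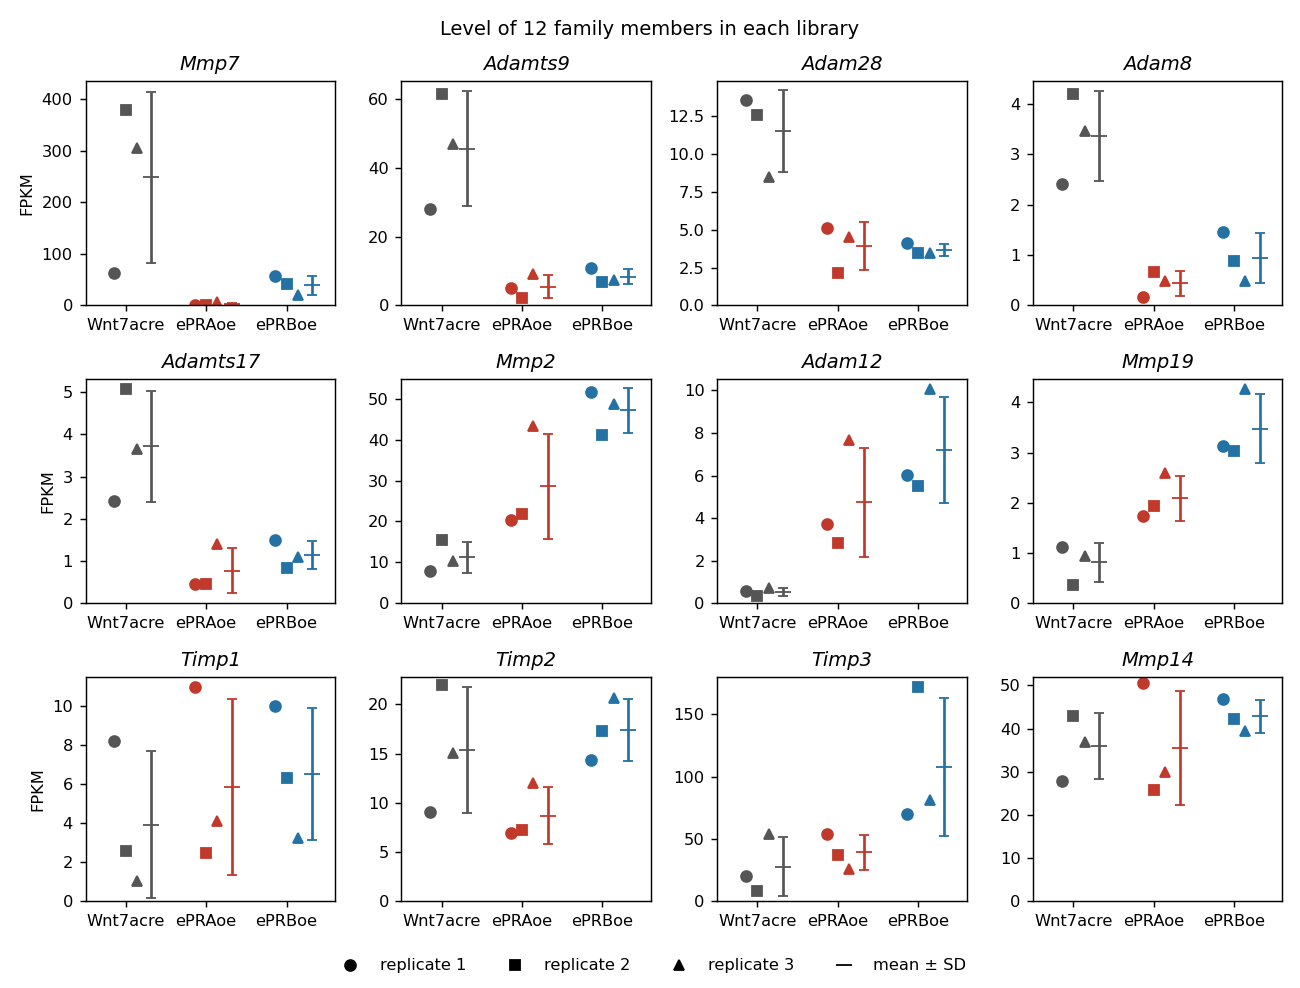
FPKM of 12 members in each library (points), with the mean and SD of the 3 libraries of each genotype. Mmp7, Adamts9, Adam28, Adam8 and Adamts17 are highest in Wnt7acre, Mmp2 and Adam12 are lowest there, and Mmp14 overlaps across genotypes; each panel has its own scale.

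Of the 9 catalytic Adam genes of somatic tissue, 8 were tested. In ePRAoe 1 rose and 3 fell (50%, beside 16.2% of all genes called). In ePRBoe 2 rose and 2 fell (50%, beside 8.89%). The members that rose, Adam12 in both genotypes and Adam19 in ePRBoe, had no control library at 1 FPKM. They passed the filter through the overexpressing genotypes, so the rises in both shares are partly set by that filter. Adam28, a membrane and secreted disintegrin protease found in epithelia and lymphocytes, stood at 13.5, 12.5 and 8.45 FPKM in Wnt7acre, 5.14, 2.11 and 4.54 in ePRAoe and 4.13, 3.45 and 3.43 in ePRBoe. All controls were above all other libraries. Adam28 fell in ePRAoe by 1.38 (SE 0.16, adjusted p = 0.00266) and by 0.91 in ePRBoe (SE 0.19, 0.0284). Adam8, a sheddase known from leukocytes and inflamed tissue, stood at 2.41, 4.19 and 3.46 FPKM in Wnt7acre, 0.171, 0.658 and 0.488 in ePRAoe and 1.46, 0.878 and 0.488 in ePRBoe. Again the controls did not overlap with the others. Adam8 fell in ePRAoe by 1.59 (SE 0.23, 0.00542) and by 1.31 in ePRBoe (SE 0.28, 0.0313). The immune marker sums differ between the genotypes, and their part in the Adam8 levels was not tested. Adam12, a protease of mesenchymal cells and placenta that releases HB-EGF, stood at 0.574, 0.327 and 0.703 FPKM in Wnt7acre, 3.73, 2.85 and 7.66 in ePRAoe and 6.01, 5.54 and 10.1 in ePRBoe. No control library reached 1 FPKM and no other library was under 2.85. It rose by 1.82 in ePRAoe (SE 0.33, adjusted p = 0.0107) and by 2.55 in ePRBoe (SE 0.40, 0.012). Adam19, which sheds neuregulins, stood at 0.418, 0.745 and 0.282 FPKM in Wnt7acre, 0.915, 0.305 and 1.81 in ePRAoe and 1.51, 1.89 and 1.90 in ePRBoe. Only the ePRBoe libraries were all above the controls. Adam19 rose by 1.28 in ePRBoe (SE 0.25, 0.0214) and differed by 0.38 in ePRAoe (0.238).

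Adam10 and Adam17, the main sheddases of Notch receptors and of EGF-family ligands and TNF, were among the most abundant members and passed in no comparison. Adam10 ranged from 17.9 to 26.9 FPKM over all 9 libraries. Adam17 stood at 24.7, 24.5 and 24 FPKM in Wnt7acre, 28.8, 18.2 and 17.2 in ePRAoe and 15.5, 16.9 and 14.9 in ePRBoe. The ePRBoe libraries were all below the others, with a difference from Wnt7acre of -0.50 (SE 0.20, 0.164). Adam9 ranged from 9.32 to 15.9 FPKM and did not pass either. Adam15, an adhesion-related protease, stood at 6.04, 8.80 and 5.21 FPKM in Wnt7acre, 4.58, 2.68 and 4.85 in ePRAoe and 7.81, 9.96 and 8.22 in ePRBoe. All ePRAoe libraries were below both other genotypes. Adam15 fell in ePRAoe by 0.61 (SE 0.17, 0.0439), and its difference of 0.70 in ePRBoe did not pass (0.0741). It shares 20.6% of its exonic bases with an antisense gene.

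Adamts9, a secreted protease that cleaves versican and aggrecan, was the second most abundant member in the controls. It stood at 28.1, 61.4 and 46.9 FPKM in Wnt7acre, 5.09, 2.27 and 9.16 in ePRAoe and 10.9, 6.67 and 7.46 in ePRBoe. Every control was above every other library. Adamts9 fell in ePRAoe by 2.92 (SE 0.31, adjusted p = 0.00219) and by 1.91 in ePRBoe (SE 0.38, 0.0241), and the latter difference was -0.95 (0.246) without Wnt7acre replicate 3. Adamts4, which cleaves the same proteoglycans, stood at 0.578, 0.434 and 0.590 FPKM in Wnt7acre, 1.17, 1.36 and 2.12 in ePRAoe and 1.75, 2.38 and 2.5 in ePRBoe. The controls lay below all other libraries, and Adamts4 rose by 1.08 in ePRBoe (SE 0.26, 0.0429), while the 0.72 in ePRAoe did not pass (0.0568). Adamts1 and Adamts15, of the same group, passed in no comparison.

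Adamts17, a secreted protease linked to fibrillin, stood at 2.43, 5.07 and 3.65 FPKM in Wnt7acre, 0.467, 0.467 and 1.40 in ePRAoe and 1.5, 0.845 and 1.11 in ePRBoe. The controls did not overlap with the others, and it fell in ePRAoe by 1.41 (SE 0.20, 0.00499) and by 0.99 in ePRBoe (SE 0.24, 0.0453). Adamts6, a close relative of Adamts10, stood at 3.10, 1.03 and 2.88 FPKM in Wnt7acre, 5.44, 6.55 and 3.36 in ePRAoe and 2.70, 1.97 and 3.18 in ePRBoe. The ePRAoe libraries were above all others, and Adamts6 rose by 0.90 in ePRAoe (SE 0.19, 0.0202) with a difference of -0.14 in ePRBoe (0.750). Adamts16, a relative of Adamts18, stood at 1.25, 0.310 and 1.14 FPKM in Wnt7acre, 7.13, 2.35 and 1.05 in ePRAoe and 1.65, 1.71 and 1.84 in ePRBoe. ePRAoe replicate 3 lay within the control range, and the rise of 1.05 (SE 0.26, 0.0342) came with replicates 1 and 2 above all controls. Adamts2, the procollagen N-proteinase, stood at 0.513, 0.105 and 0.701 FPKM in Wnt7acre, 2.25, 1.34 and 2.06 in ePRAoe and 1.33, 2.47 and 1.60 in ePRBoe. The controls lay below all other libraries. Adamts2 rose by 1.01 in ePRAoe (SE 0.26, 0.0357), and its difference of 0.97 in ePRBoe did not pass (0.0998). Adamts7, which cleaves cartilage oligomeric matrix protein, stood at 1.08, 0.653 and 0.709 FPKM in Wnt7acre, 2.14, 1.10 and 3.04 in ePRAoe and 2.86, 2.75 and 2.19 in ePRBoe, and it rose by 1.29 in ePRBoe (SE 0.28, 0.0317).

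The inhibitors did not move as a group. Timp1, an inducible inhibitor of most soluble Mmps, stood at 8.20, 2.56 and 1.03 FPKM in Wnt7acre, 10.9, 2.48 and 4.10 in ePRAoe and 9.99, 6.32 and 3.25 in ePRBoe, and all genotypes overlapped. Wnt7acre replicate 1 and ePRAoe replicate 1, which shared a sequencing run, were the highest of their genotypes. With the run in the fit Timp1 rose by 1.68 in ePRBoe (SE 0.40, adjusted p = 0.0425), and without the run term it did not pass (0.430). Timp2, which both blocks Mmp2 and, with Mmp14, helps activate it, stood at 9.11, 22 and 15 FPKM in Wnt7acre, 6.91, 7.22 and 12 in ePRAoe and 14.4, 17.3 and 20.6 in ePRBoe. ePRAoe overlapped with the controls through replicate 3. Timp2 fell in ePRAoe by 0.71 (SE 0.18, 0.0366) and differed by 0.31 in ePRBoe (0.432). Timp3, the matrix-bound inhibitor that also blocks Adam17 and ADAMTS proteases, stood at 20.3, 8.57 and 54.2 FPKM in Wnt7acre, 54.3, 37.2 and 26.2 in ePRAoe and 70.1, 171 and 81.2 in ePRBoe. All ePRBoe libraries were above the other genotypes, and replicate 2, with 171, is the one with the highest smooth muscle sum, 119. The differences were 0.78 (SE 0.45, 0.283) and 1.52 (SE 0.56, 0.137) and did not pass. In ePRAoe the difference was -0.53 within the first sequencing run and 1.51 and 1.37 within the other two. Timp3 shares 21.3% of its exonic bases with Syn3 on the other strand, listed at up to 2.47 FPKM. Timp4 did not exceed 0.879 FPKM and was not tested. The summed Timp FPKM was 37.7, 33.3 and 70.4 in Wnt7acre, 72.2, 47.8 and 42.9 in ePRAoe and 95.1, 195 and 106 in ePRBoe, beside 60.2, 88.6 and 65.1, then 96.2, 67.0 and 93.0, then 132, 113 and 117 for the Mmp genes without Mmp7. Both sums were highest in ePRBoe.

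Genes that activate, restrain or supply substrates to the family were read from lists chosen by function. Where 2 differences are given for a gene, the first is ePRAoe and the second ePRBoe against Wnt7acre, each with its adjusted p in parentheses. Proprotein convertases and the plasminogen system remove the propeptides of these proteases, and 8 of the 9 listed genes in the table were tested; 2 rose and 3 fell in ePRAoe (62.5%, beside 16.2% of all genes called) and 2 rose and 2 fell in ePRBoe (50%, beside 8.89%). Pcsk6, a convertase, stood at 20.3, 64.2 and 37.5 FPKM in Wnt7acre, 0.159, 3.36 and 6.46 in ePRAoe and 8.66, 2.94 and 5.38 in ePRBoe. It fell by 3.49 (adjusted p = 0.00210) and 2.80 (0.0110). Plaur, the urokinase receptor, fell by 2.07 (0.00219) and 1.51 (0.0171), and Plau, urokinase itself, by 0.99 (0.0226) in ePRAoe. Pcsk5, a related convertase, rose by 1.03 (0.0485) and 1.70 (0.0280). Serpine2, a serpin that blocks urokinase and thrombin, stood at 34.5, 9.21 and 21.2 FPKM in Wnt7acre, 59.2, 100.4 and 77.9 in ePRAoe and 196, 161 and 144 in ePRBoe, with no overlap, and rose by 1.97 (0.0116) and 2.79 (0.012). Of 7 other inhibitors and docking proteins tested, 1 rose in ePRAoe (14.3%, below the 16.2% of all genes called) and 3 in ePRBoe (42.9%, beside 8.89%). Reck, a membrane-anchored Mmp inhibitor, rose by 1.44 in ePRBoe (0.0289). Lrp1, the endocytic receptor that clears protease-inhibitor complexes, rose by 0.81 (0.0186) and 1.69 (0.00670), and Spock2 by 2.09 in ePRBoe (0.0307).

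Adam10 and Adam17 depend on tetraspanins and on the iRhom proteins for transport, and of 8 such genes 4 fell in ePRAoe (50%, beside 16.2% of all genes called). In ePRBoe 1 of 8 fell (12.5%), near the 8.89% of all genes. Tspan14, a partner of Adam10, fell by 0.87 (0.00996) and 0.93 (0.0244). The iRhom genes Rhbdf2 and Rhbdf1 fell by 1.13 (0.0475) and 0.72 (0.0389) in ePRAoe, and Frmd8, which stabilises iRhoms, by 0.65 (0.0138). Of 18 shed substrates, 1 rose and 8 fell in ePRAoe (50%, beside 16.2%). In ePRBoe 1 rose and 1 fell (11.1%), near the 8.89% of all genes. The rise in ePRBoe was that of Cd44, an adhesion receptor, by 1.06 (0.0265) with overlapping libraries, and without the run term it did not pass (0.728). Areg, amphiregulin, rose by 3.19 in ePRAoe (0.0282), and its 2.96 in ePRBoe did not pass (0.0925). Il6ra fell by 1.74 (0.00591), Sdc1, syndecan 1, by 1.16 (0.00880) and Btc, betacellulin, by 1.22 (0.00996) in ePRAoe. L1cam, an adhesion molecule, fell by 2.06 (0.00683) and 1.70 (0.0394). Other metalloproteases and their enhancers had 1 rise and 4 falls among 7 in ePRAoe (71.4%), and 2 rises and 1 fall in ePRBoe (42.9%). Ece1, the endothelin-converting enzyme, fell by 1.08 (0.00612) and 1.06 (0.0206). Tll1, a procollagen C-proteinase, stood at 43.4, 48.9 and 63.5 FPKM in Wnt7acre, 0.877, 2.94 and 21.7 in ePRAoe and 47.7, 13.9 and 10.8 in ePRBoe, and fell by 3.24 in ePRAoe (0.0229). Pappa, the protease of IGF-binding proteins, rose by 1.43 in ePRBoe (0.0245).

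Of 16 matrix substrates, 7 rose and 1 fell in ePRAoe, and 9 rose and 0 fell in ePRBoe, or 50% and 56.2% called, beside 16.2% and 8.89% of all genes. Fn1, fibronectin, stood at 11.3, 11.2 and 9.97 FPKM in Wnt7acre, 39, 26.3 and 38.4 in ePRAoe and 46.1, 45.5 and 64.6 in ePRBoe, and rose by 1.57 (0.00243) and 2.38 (0.00300). Col1a1, Col3a1 and Nid1 rose by 1.77, 1.57 and 1.5 in ePRAoe and by 2.46, 1.90 and 2.27 in ePRBoe. Spp1, osteopontin, a substrate of Mmp7, was the gene that fell, by 3.41 in ePRAoe (0.00430), from 31.8, 137 and 83.7 FPKM to 5.41, 5.04 and 7.25. Col1a1, Col1a2, Col3a1 and Dcn of this list are also among the 16 stromal markers, whose sums were higher in the same libraries. Between the isoforms 0 genes of these 6 lists passed by limma, with 0 to 7 in each list at an unadjusted p under 0.05. Over all genes tested, 2310 of 12347 had such a p. Of the 32 calls in ePRAoe, 12 passed with any 1 library left out (Col1a1, Col3a1, Cxcl16, Ece1, Fn1, Il6ra, Nid1, Pcsk6, Plaur, Sdc1, Spp1 and Tspan14). Leaving out Wnt7acre replicate 2 or ePRAoe replicate 3 lost 17, and Wnt7acre replicate 3 or ePRAoe replicate 2 lost 15. The same settings gave 815, 803, 761 and 747 calls over all genes, beside 1998 with all libraries. Of the 22 in ePRBoe, 6 passed (Col1a1, Col4a1, Fn1, Lrp1, Nid1 and Vcan). Lost were 13 without ePRAoe replicate 2, 12 without ePRBoe replicate 2, 11 without Wnt7acre replicate 3 and 10 without ePRBoe replicate 3. These settings gave 364, 389, 232 and 482 calls over all genes, beside 1098 with all libraries.

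**Figure D5:**
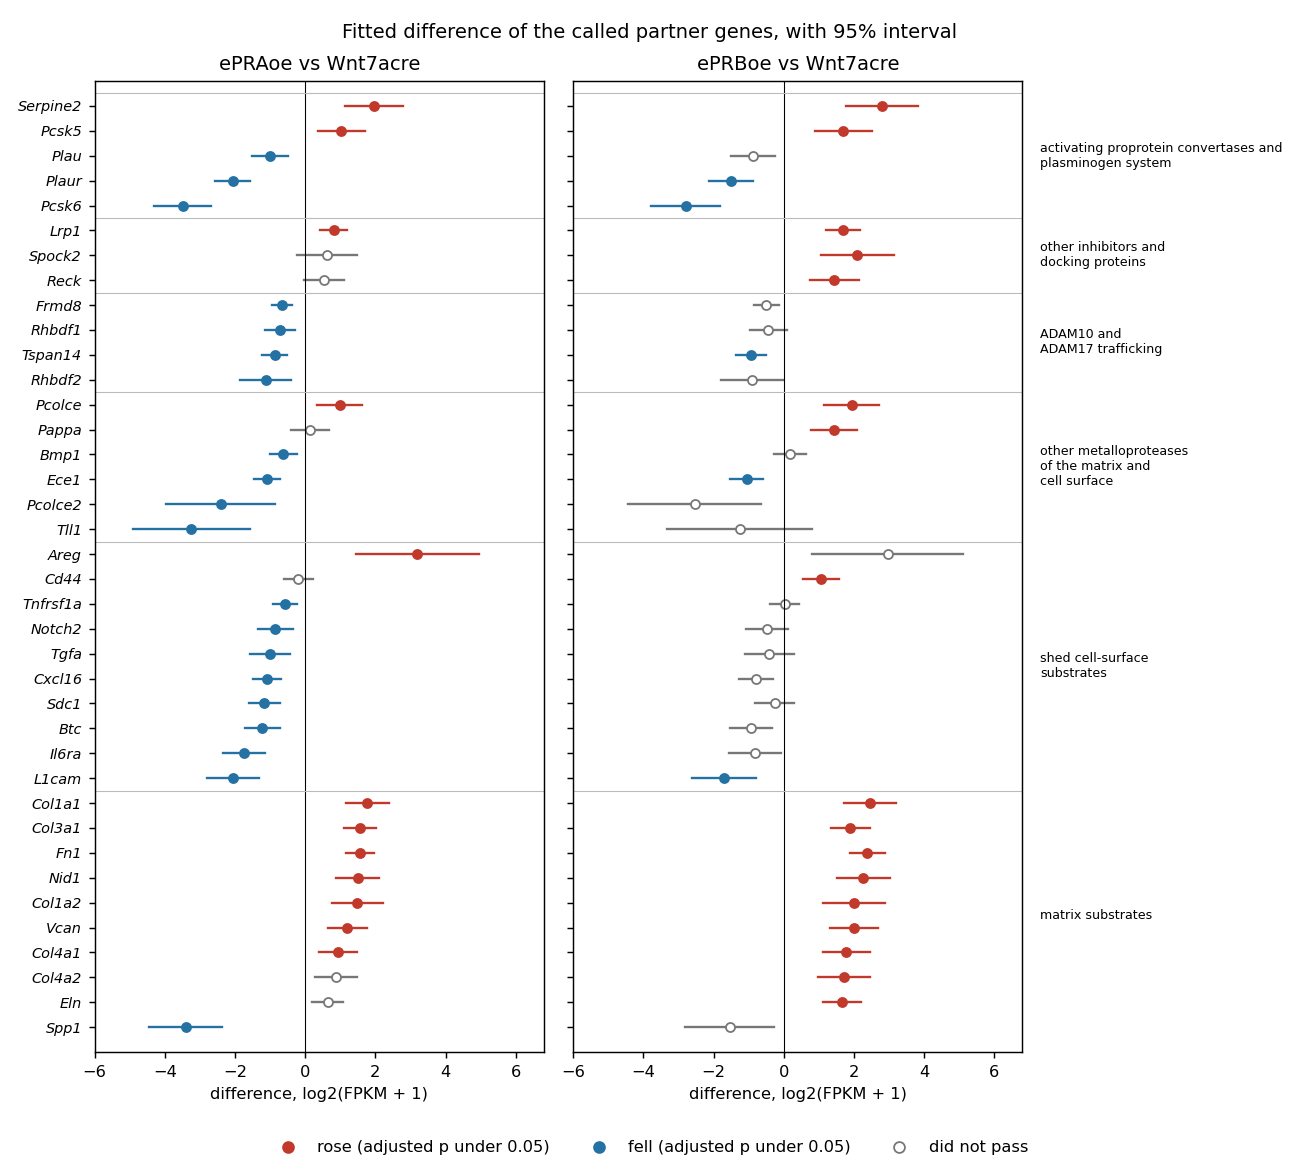
Difference in log2(FPKM + 1) with its 95% confidence interval (limma) for the partner genes called in at least 1 comparison with Wnt7acre, for ePRAoe and ePRBoe. Pcsk6, Spp1 and Tll1 lie at -3.49, -3.41 and -3.24 in ePRAoe, and Areg lies at 3.19.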

How the data were processed

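The authors deposited 1 table of FPKM values, per the file headers, with 9 library columns and 15158 symbols. Reads were mapped (build mm10) by STAR 2.5.2b and counted by featureCounts 1.5.0-p1, and edgeR 3.28.0 and limma 3.42.2 were used, per the submitters' processing notes; the annotation, strand setting and gene lengths behind them were not given in the sources used here. Strand being unknown, reads of overlapping genes cannot be told apart. Library depth is not stated, and the approximate read number that low values imply was not used for counting intervals. Deposited FPKM summed to 272213 to 314010 per library, with 11074 to 12300 genes at 1 FPKM or more. The highest correlation between libraries was 0.974, so none was counted as a duplicate.

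Values were tested as log2(FPKM + 1), and folds are on that scale, which understates the change of low genes. A gene entered the fit when 3 or more libraries held 1 FPKM or more (12347 genes). It was run in limma 3.58.1 (R 4.3.3) with genotype and sequencing run, taken from the run names in the labels, with 4 residual and 3.64 prior degrees of freedom. P-values are two-sided, Benjamini-Hochberg adjusted over all genes tested, with a threshold of 0.05. The script was tested on simulated data.

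The members and lists were chosen with earlier results of these data known. Named members are those called, the 10 with the highest mean and all Timps; named partners are those called. All others were named after their values were seen. The labels pair no samples. Positions and exon overlaps come from GENCODE M21 and promoters from RefSeq, both of the mm10 assembly. The table lists 4239 symbols, 21 of them members, out of alphabetical order. The read number implied by the steps between low values was 8.84 M (median of 3 such members) for these and 9.07 M (median of 15) for the rest, and all rows were used. Other pseudocounts, filters, scalings, run and block terms, and each library left out were tried.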

Additional observations from a re-analysis of the deposited data

How the results depend on the processing

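No difference that passed the test changed sign under an alternative. The count of members called in ePRAoe (12) was 6 with a mean of at least 5 FPKM, 6 with only the 2 genotypes in the fit and no run term, and 6 to 13 with 1 library left out. Over all genes the 1998 calls became 1502, 681 and 747 to 2719 in these settings. In ePRBoe (11) the members called were 3 with a mean of at least 5 FPKM, 7 after rescaling to TPM and 6 after quantile normalization. With 1 library left out they were 1 to 14. Over all genes the 1098 calls became 653, 927, 1019 and 232 to 1602 in these settings. Between the isoforms (0) the members called were 0 to 6 with 1 library left out, and the 40 calls over all genes became 0 to 546. The stricter filter tests fewer genes; for the other settings the cause was not tested. Leaving out the run term alone gave 9 members in ePRAoe, and 1479 over all genes. The difference in Mmp7 in ePRAoe was -7.39 within sequencing run 1 and -4.62 within run 3, and -6.58 to -5.19 with 1 library left out. In ePRBoe it was -3.05 to -0.85 with 1 library left out, and between the isoforms 2.14 to 4.35. Where a library is left out of a run of 2, the run's other library no longer bears on the genotypes, so both give the same or nearly the same values.

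Of the named members' differences that had not passed, 14 changed sign at least once, and none passed with the new sign. In ePRAoe, with 1 library left out, Mmp14 (-0.06) ran from -0.50 to 0.17 and Mmp23 (-0.24) from -0.43 to 0.0035, and within single runs Mmp14 reached 0.84, Adam17 0.21, Adam9 0.016, Mmp23 0.14 and Timp3 -0.53. In ePRBoe, Adam10 (0.03) was -0.060 without the run term, under the replicate block and with only the 2 genotypes, -0.11 with median-of-ratios scaling, -0.0060 with quantile normalization and -0.023 to 0.15 with 1 library left out. Adamts6 (-0.14) was 0.17 without the run term, under the block and with only the 2 genotypes, and Adam9 (-0.05) ran from -0.13 to 0.035 with 1 library left out. Between the isoforms, Adam28 (0.47) was -0.022 in those same 3 fits, and with quantile normalization Adam8 was -0.16, Adamts17 -0.045 and Adamts4 -0.0020. With 1 library left out, Adamts2 (-0.04) ran from -0.59 to 0.24 and Timp3 (0.73) from -0.58 to 1.39.

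The replicate block had the replicate number in place of the run. It gave 7 calls of members in ePRAoe (2 rose, 5 fell), 11 in ePRBoe and 0 between the isoforms. Over all genes it gave 1113, 1437 and 4. Under the block Cd44 in ePRBoe was 0.25 (limma adjusted p = 0.742). Same-numbered libraries correlated in their deviations from the genotype means at -0.230 to 0.171 over 9 pairs, against -0.307 to 0.315 over 18 other pairs, so the numbers were not taken as pairing samples. Over all alternatives 2272 values kept their sign and, where tested, their side of the threshold, 336 were no longer past it, 31 came to pass it and 119 moved by more than the spread or, for counts, over 1.5 times. With 3 libraries a genotype and no stated depth, members under 1 FPKM are not resolved.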

Other observations

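Members below the test limit still differed in level between libraries. Mmp16, a membrane-anchored protease of mesenchymal cells, was at 0.077, 0.231 and 0.308 FPKM in Wnt7acre, 0.647, 0.739 and 1.02 in ePRAoe and 0.878, 0.801 and 1.45 in ePRBoe. Adamts14, a procollagen N-proteinase, was at 0.117 to 0.381, 0.410 to 0.718 and 0.938 to 1.36 FPKM, and Adam11, which lacks catalytic activity, at 0.119 to 0.223, 0.223 to 0.700 and 0.581 to 1.15. In these 3 genes the libraries of ePRBoe were all above those of Wnt7acre. Adamtsl1 was at 1.37 FPKM in ePRBoe replicate 2 and at most 0.388 elsewhere, and ePRBoe replicate 2 is also the library with the highest Timp3. They were chosen after their values were seen, and no test was run on them.

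Most called members stood out of alphabetical order in the deposited table. All 12 members called in ePRAoe and 9 of the 11 called in ePRBoe were among the 21 out of alphabetical order, as were 6 tested members that were not called in ePRAoe. Out of alphabetical order were also 4239 of all 15158 symbols, so this feature is not confined to the family. No like share of all called genes is given here, and how the order relates to the calls was not tested.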
